A study of Mus musculus with 6 samples.

Results

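The troponin complex of striated muscle is built from troponin I, troponin T and troponin C, and each of these proteins is encoded by a small gene family. The 8 genes described here were taken by their symbols from a table of read counts of 23337 mouse genes. They are Tnni1, Tnni2 and Tnni3 for troponin I, Tnnt1, Tnnt2 and Tnnt3 for troponin T, and Tnnc1 and Tnnc2 for troponin C. All 8 passed the filter on low counts, as did 14587 genes of the table.

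RNA came from cardiomyocytes of wild-type mice aged 4 weeks that had been injected at postnatal day 1 with an adeno-associated virus (AAV), a gene transfer vector. The virus carried GFP in the control group, XBP1S in another and ATF6N in the remaining group, with 2 libraries in each of the 3 groups and 6 in all. XBP1S names the active product of XBP1 splicing, and ATF6N the part of ATF6 that enters the nucleus. Each acts as a transcription factor in the unfolded protein response, which answers stress of the endoplasmic reticulum. Hearts were digested by Langendorff perfusion, through their own vessels, and the cardiomyocytes were sorted by flow cytometry. The mouse strain, the promoter of the virus and the share of cells that it reached are not stated in the labels. Nor do they say that the libraries of a group came from separate animals, so p-values measure the spread between libraries, which may be technical.

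Troponin sits on the thin filament with actin and tropomyosin. Calcium binding to troponin C releases the block that troponin I places on the contact between actin and myosin, and troponin T ties the complex to tropomyosin. The heart uses Tnni3, Tnnt2 and Tnnc1. Slow skeletal fibres use Tnni1, Tnnt1 and Tnnc1, and fast fibres use Tnni2, Tnnt3 and Tnnc2. The fetal heart makes the slow skeletal troponin I of Tnni1 and replaces it with the cardiac form of Tnni3 around and after birth. The cardiac form has an amino-terminal extension with sites for protein kinase A that the slow form lacks.

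On mm10 the troponin I and T genes lie in 3 pairs. Tnni1 (chromosome 1, 135799421 to 135810989, plus strand) lies near Tnnt2 (chromosome 1, 135836386 to 135852261, plus strand), with Lad1 between them. Tnni3 (chromosome 7, 4518308 to 4522443, minus strand) lies beside Tnnt1 (chromosome 7, 4504663 to 4515975, minus strand). Tnni2 (chromosome 7, 142442468 to 142444405, plus strand) lies near Tnnt3 (chromosome 7, 142498836 to 142516009, plus strand). Tnnc1 is on chromosome 14 (31208312 to 31211711, plus strand) and Tnnc2 on chromosome 2 (164777162 to 164779734, minus strand). No exon base of a troponin gene was shared with an exon of another gene in the table. A slow troponin I gene thus lies near the cardiac troponin T gene, and the cardiac troponin I gene beside the slow troponin T gene.

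The sequences shown here are the 250 bases before the annotated start of Tnni1, the troponin gene that passed the test below, of Tnni3, its cardiac counterpart, and of Derl3. Derl3 encodes a protein of endoplasmic reticulum-associated degradation. Among 9980 candidate genes, its log2 level relative to its own mean was the most similar to that of Tnni1 over the 6 libraries. All are from RefSeq on GRCm38.p6, the assembly of mm10, read 5′ to 3′ along the gene's strand. The windows are chr1:135799171-135799420 (plus strand) for Tnni1, chr7:4522529-4522778 (minus strand) for Tnni3 and chr10:75893148-75893397 (plus strand) for Derl3. Capitals mark CCACG on either strand (CGTGG on the other), a core of the ER stress response element, and in Derl3 also the CCAAT that completes such an element (ATTGG on the other strand).
Tnni1: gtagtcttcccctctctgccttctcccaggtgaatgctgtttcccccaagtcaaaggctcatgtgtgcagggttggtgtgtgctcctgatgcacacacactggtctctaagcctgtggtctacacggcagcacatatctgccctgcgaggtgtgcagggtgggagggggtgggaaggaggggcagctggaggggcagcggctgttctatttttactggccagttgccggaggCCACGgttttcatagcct
Tnni3: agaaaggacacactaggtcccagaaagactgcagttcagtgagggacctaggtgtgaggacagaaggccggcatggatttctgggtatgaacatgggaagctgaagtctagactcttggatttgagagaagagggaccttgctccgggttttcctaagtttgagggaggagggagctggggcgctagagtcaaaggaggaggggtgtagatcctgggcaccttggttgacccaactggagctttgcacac
Derl3: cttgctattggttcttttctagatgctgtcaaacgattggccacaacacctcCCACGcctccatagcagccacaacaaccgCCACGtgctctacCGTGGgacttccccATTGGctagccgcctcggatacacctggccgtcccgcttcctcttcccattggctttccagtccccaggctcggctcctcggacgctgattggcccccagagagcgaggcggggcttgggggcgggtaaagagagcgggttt

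Motifs were searched on both strands in windows from 250 bases before to 50 after each annotated start. The motifs were ACGTG, a core of XBP1 and ATF6 sites, TGACGTG, which contains it, CCACG, the full ER stress response element named ERSE (CCAAT, 9 free bases, CCACG), which contains CCACG, and TGACGTCA, a cyclic AMP response element. Windows were at hand for 6 of the 8 troponin genes, and 2 (Tnni2 and Tnnt3) had none. In the Tnni1 window shown, CCACG stood 18 bases before the start, and no other motif of the list was found. A further Tnni1 window, with a start 90 bases downstream, held CCACG 108 and 32 bases before that start. The first of these is the site in the sequence above. Tnnt2 held 1 CCACG, 128 bases before its start on the strand opposite to the gene. None of the 8 windows of the 6 troponin genes held any of the listed motifs other than CCACG. Derl3 held CCACG 198, 169 and 156 bases before its start, and that at 156 completed an ERSE. It also held ACGTG on both strands at 168 and 167, in letters that overlap each other and the CCACG at 169. Pdia2 (at 12 and 11) and Pik3ap1 (at 172 and 171), which are also among the genes most similar to Tnni1, held ACGTG on both strands as well. CCACG stood at 13 and 10 in Pdia2 and at 170 and 81 in Pik3ap1. Slc2a6, another of the genes most similar to Tnni1, held a CCACG at 194 and no ACGTG. Top2a, the remaining gene, held none of the listed motifs. Of all 32851 promoter windows, 32.8% held CCACG, 19.6% ACGTG, 2.01% TGACGTG, 1.79% TGACGTCA and 0.119% ERSE. A single CCACG is therefore a common feature of promoters, and such a match is a description of the letters and not of binding.

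Total counts ran from 67702482 to 112049342 per library. The first AAV-GFP library stood apart from the other libraries, at -99.6 on a first principal component that held 43.9% of the variance, against -14.2 to 46.0 for the others. Its share of counts on Rn45s, a ribosomal RNA gene, was 0.337%, against 0.0319% to 0.130%. The 9 markers of ventricular cardiomyocytes were all detected and summed to 101079 and 98301 CPM (counts scaled to the size of the library) in AAV-GFP, 82594 and 88990 in AAV-XBP1S, then 119109 and 118117 in AAV-ATF6N, with 0 of 9 called against AAV-GFP. Sex-linked genes differed between groups. Eif2s3y, a Y-linked gene, had 1629 and 979 counts in AAV-GFP, 0 and 0 in AAV-XBP1S, then 3595 and 2824 in AAV-ATF6N. Xist, expressed from the inactive X, had 2424 and 562, 4014 and 1650, and 16 and 6 counts in the same order. The labels give no sex, and differences between the groups in virus and in the sex of the animals cannot be told apart. The counts of the genes Xbp1 and Atf6 did not pass the test against AAV-GFP. Xbp1 had 163 ± 3.94 CPM in AAV-XBP1S and 107 ± 12.2 in AAV-GFP (SD, n = 2 each, log2 fold change 0.61, adjusted p = 0.307 by edgeR's quasi-likelihood test). Atf6 had 159.8 ± 2.99 in AAV-ATF6N and 57.7 ± 18.1 in AAV-GFP (1.47, adjusted p = 0.126 by the same edgeR test). Counts per gene do not separate reads of a delivered transcript from those of the cell's own gene. Of 16 genes listed for XBP1s and ATF6, 2 were higher in AAV-XBP1S (Derl3 and Sdf2l1), where 0.178% of all genes tested were higher, and 7 in AAV-ATF6N (Derl3, Pdia4, Sdf2l1, Creld2, Hyou1, Hsp90b1 and Hspa5), where 0.35% were. None of the 16 was lower in either.

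Tnni1, the slow skeletal and fetal troponin I, was the only troponin gene to pass the test, and it was higher in both treated groups. In AAV-GFP it was nearly silent, with 190 and 128 counts. Counts were 10788 and 6417 in AAV-XBP1S, then 20124 and 17371 in AAV-ATF6N. On the CPM scale the libraries held 1.93 and 1.80 in AAV-GFP, 116 and 78.4 in AAV-XBP1S, then 248 and 266 in AAV-ATF6N. The ranges of the 3 groups did not overlap, and the libraries of AAV-ATF6N were the highest. Against AAV-GFP, the mean was 52.2 times as high in AAV-XBP1S (97.2 ± 26.5 against 1.86 ± 0.0953 CPM, SD, n = 2 each) and 138 times as high in AAV-ATF6N (257 ± 12.7). The log2 fold change was 5.70 (SE 0.29, adjusted p = 0.00265 by edgeR's quasi-likelihood test) in AAV-XBP1S and was 7.11 (SE 0.31, adjusted p = 0.00130 by the same test) in AAV-ATF6N. By unadjusted p, Tnni1 ranked 1 of all 14587 genes in AAV-ATF6N and 2 in AAV-XBP1S. Both comparisons use the same AAV-GFP libraries.

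The authors' deposited tables, made from the 4 libraries of each comparison, listed Tnni1 at a log2 fold change of 5.70 (SE 0.384) in AAV-XBP1S and was 7.11 (SE 0.306) in AAV-ATF6N. In the authors' deposited tables Tnni1 ranked 1 by p in both, and the other 7 troponin genes were not past an adjusted p of 0.05. Leaving out any 1 library left Tnni1 past the threshold, at 5.44 to 5.96 in AAV-XBP1S and 7.06 to 7.16 in AAV-ATF6N. The AAV-GFP libraries, lowest in Tnni1, held Eif2s3y and Xist counts together, while the AAV-XBP1S libraries had no Eif2s3y and the AAV-ATF6N libraries almost no Xist. The part of this difference in the Tnni1 result was not tested.

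**Figure D1:**
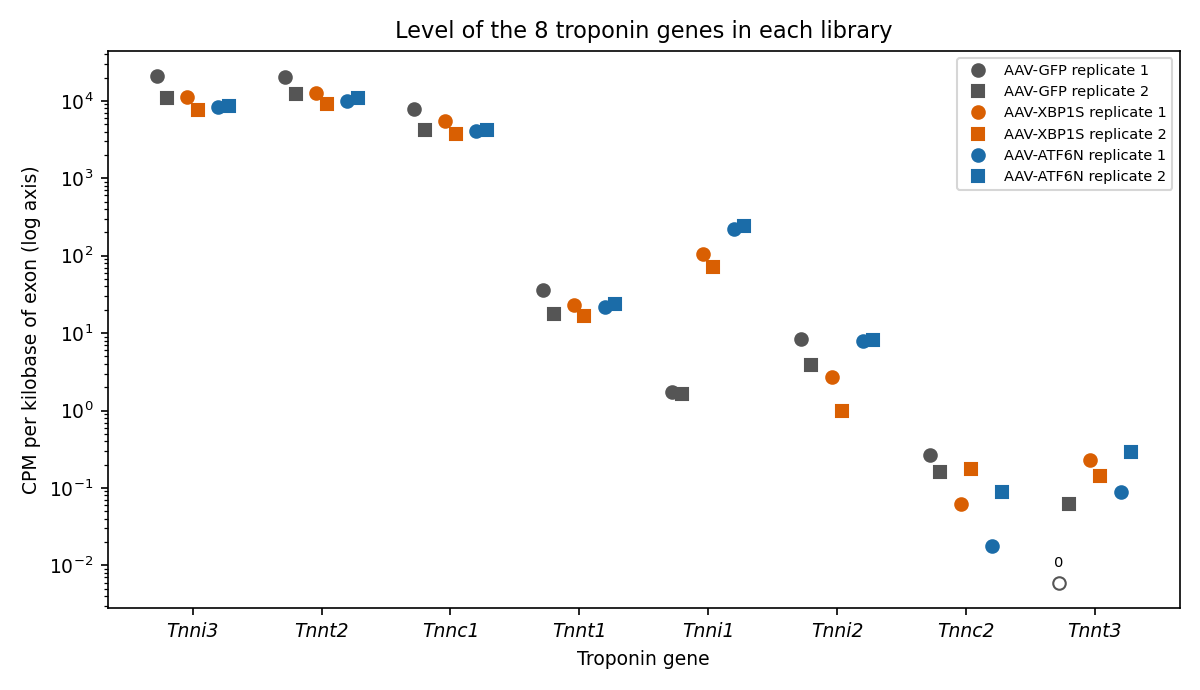
CPM per kilobase of exon (log axis) of the 8 troponin genes, with 1 point per library, grey for AAV-GFP, orange for AAV-XBP1S and blue for AAV-ATF6N; circles are replicate 1, squares replicate 2, and an open symbol marked 0 is a library with no count. Tnni1 moves from 1.61 and 1.73 in AAV-GFP to 70.4 and 104 in AAV-XBP1S, then 223 and 239 in AAV-ATF6N, while Tnni3, Tnnt2 and Tnnc1 lie far above the other troponin genes in every library.

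The direct comparison asks whether the AAV-ATF6N and AAV-XBP1S groups differ in Tnni1. The mean was 2.64 times as high in AAV-ATF6N as in AAV-XBP1S. The log2 difference was 1.40 (SE 0.24, 95% interval 0.83 to 1.98), with an adjusted p of 0.0698 in edgeR's quasi-likelihood test, so it did not pass the threshold. It passed when the fit was restricted to the 4 libraries (1.40, adjusted p = 0.0289 by edgeR) and under DESeq2 (1.40, adjusted p = 8.95e-05). Whether the difference between the groups was called thus depended on the fit. These groups also differed in sex-linked genes. Eif2s3y had no count in AAV-XBP1S, beside 3595 and 2824 in AAV-ATF6N. Xist ran the other way, with 4014 and 1650 counts in AAV-XBP1S against 16 and 6. The part of sex in this Tnni1 difference was not tested.

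In the direct comparison 33 of the 14587 genes passed the edgeR test (0.226% of those tested, 0.171% higher and 0.0548% lower), and 0 of the 8 troponin genes were among them. Against AAV-GFP, 1 of 8 was higher and 0 lower in AAV-XBP1S, where 0.315% of the genes tested passed, 0.178% higher and 0.137% lower. In AAV-ATF6N, 1 of 8 was higher and 0 lower, where 0.514% passed, 0.35% higher and 0.165% lower. Groups did not overlap for 3 of the 8 genes in AAV-XBP1S against AAV-GFP (35.9% of all genes tested), for 6 in AAV-ATF6N against AAV-GFP (54.5%) and for 2 in the direct comparison (56.9%), so separation of the libraries alone was common. The median log2 fold change of the 8 genes was -0.51 in AAV-XBP1S and -0.41 in AAV-ATF6N, beside -0.01 and -0.02 for all genes tested. Counts of genes over the whole table moved with single libraries. For AAV-XBP1S, 46 genes passed with all libraries, 87 and 322 without the first or the second AAV-GFP library, 2 without either AAV-XBP1S library, and 17 and 16 without either AAV-ATF6N library. For AAV-ATF6N, 75 genes passed, and 3055 without the second AAV-GFP library, 10 and 13 without the first or the second AAV-XBP1S library, and 6 and 7 without the first or the second AAV-ATF6N library. For the direct comparison the count was 717 and 652 without the first or the second AAV-GFP library, 1 without either AAV-XBP1S library and 4 without either AAV-ATF6N library.

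**Figure D2:**
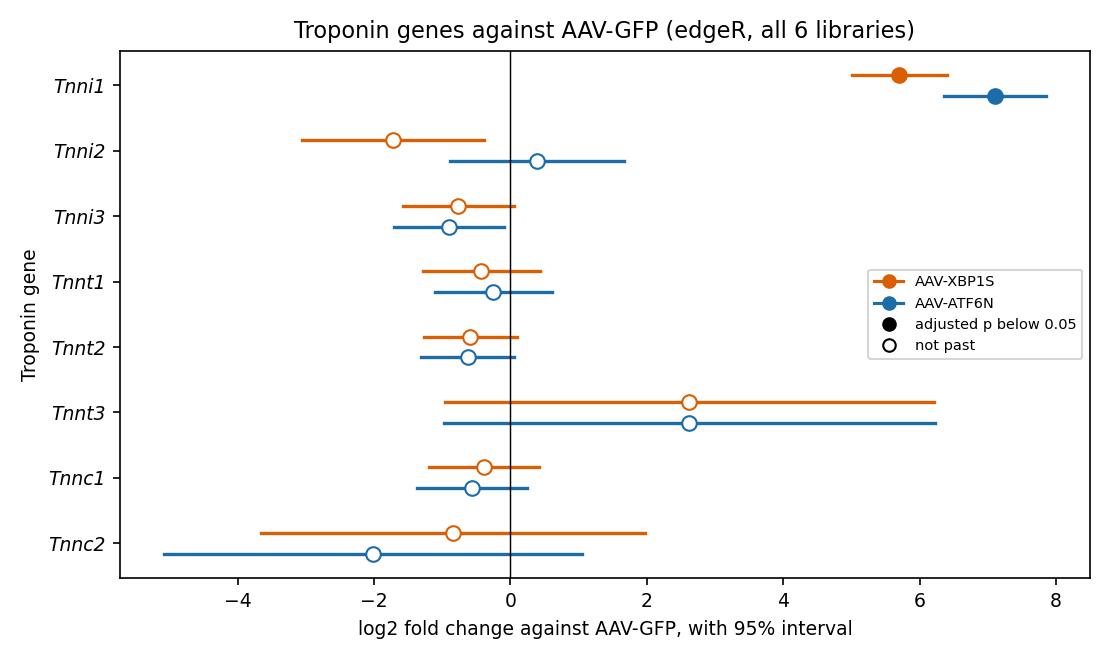
Log2 fold change of each troponin gene against AAV-GFP with its 95% interval (x axis), orange for AAV-XBP1S and blue for AAV-ATF6N; filled points have an adjusted p below 0.05 in edgeR's quasi-likelihood test. Tnni1 has the only filled points, at 5.70 and 7.11, and the intervals of Tnnt3 and Tnnc2 are wide.

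Tnni3, the cardiac troponin I of the adult heart, stayed the main troponin I in every library. It had 1694835 and 639317 counts in AAV-GFP, 857901 and 508779 in AAV-XBP1S, then 562840 and 462824 in AAV-ATF6N. In CPM these were 17221 and 8969, 9221 and 6218, and 6936 and 7086. The first AAV-GFP library was the highest, and both AAV-ATF6N libraries lay below both AAV-GFP libraries. The log2 fold change was -0.76 (SE 0.34, adjusted p = 0.455 by edgeR) in AAV-XBP1S and was -0.90 (SE 0.34, adjusted p = 0.351 by edgeR) in AAV-ATF6N. Without the first AAV-GFP library these were -0.22 and -0.36 (adjusted p = 0.719 and 0.682 by edgeR). Without the second AAV-GFP library, the AAV-XBP1S value was -1.13 (adjusted p = 0.0556 by edgeR) and the AAV-ATF6N value was -1.28 (adjusted p = 0.0301 by edgeR), and in AAV-ATF6N Tnnt2 and Tnnc1 passed as well, at -0.93 and -0.93 (adjusted p = 0.0345 and 0.0421 by edgeR). That fit leaves AAV-GFP represented by the first library alone, which stood apart, and takes its spread from the other groups.

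Tnni2, the fast skeletal troponin I, had 547 and 186 counts in AAV-GFP, 168 and 54 in AAV-XBP1S, then 433 and 352 in AAV-ATF6N. In CPM these were 5.56 and 2.61, 1.81 and 0.660, and 5.34 and 5.39. Both AAV-XBP1S libraries lay below the other 4. The log2 fold change was -1.73 (SE 0.56, adjusted p = 0.330 by edgeR) in AAV-XBP1S and was 0.39 (SE 0.54, adjusted p = 0.702 by edgeR) in AAV-ATF6N. Leaving out 1 library moved the AAV-XBP1S value between -2.58, without the first AAV-XBP1S library, and -1.08, without the first AAV-GFP library. In the direct comparison it was 2.12 (SE 0.56, adjusted p = 0.177 by edgeR), and DESeq2 gave 2.12 with an adjusted p of 0.00619. The order of the groups thus differed from that of Tnni1, with AAV-XBP1S lowest.

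Isoform shares within a library do not depend on its size, and they were formed from counts per kilobase of exon, since the transcripts differ in length. Tnni1 made up 0.00829% and 0.0148% of troponin I in AAV-GFP, 0.921% and 0.924% in AAV-XBP1S, then 2.57% and 2.70% in AAV-ATF6N. The replicates lay close together in both treated groups, and the groups did not overlap. Tnni2 made up 0.0399% and 0.0359%, 0.0240% and 0.0130%, and 0.0925% and 0.0913% in the same order. Tnni3 held the rest, from 99.95% in AAV-GFP to 97.2% and 97.3% in AAV-ATF6N. The minor isoform order therefore differed by group: Tnni2 was above Tnni1 in both AAV-GFP libraries, and Tnni1 was above Tnni2 in the other 4.

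The ratio of Tnni1 to Tnni3 per kilobase was 8.29e-05 and 0.000148 in AAV-GFP, 0.00930 and 0.00933 in AAV-XBP1S, then 0.0264 and 0.0278 in AAV-ATF6N. The ratio of the geometric means was 84.1 for AAV-XBP1S over AAV-GFP, 245 for AAV-ATF6N over AAV-GFP, and 2.91 for AAV-ATF6N over AAV-XBP1S. The ratios are given as a description, with no test. With 2 libraries in each group the smallest two-sided p of an exact permutation test is 0.333. In raw counts, the Wilson 95% interval of the Tnni1 share was 0.00972% to 0.0129% in the first AAV-GFP library, 1.22% to 1.27% in the first AAV-XBP1S library and 3.40% to 3.50% in the first AAV-ATF6N library. These intervals cover counting error only and are narrow beside the gaps between groups.

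**Figure D3:**
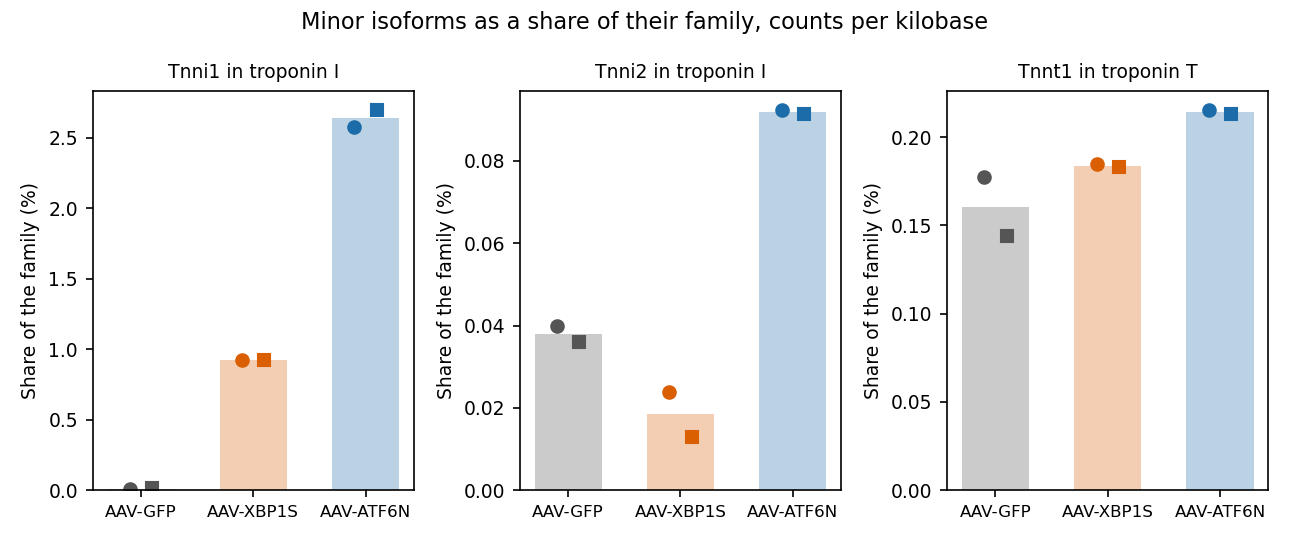
Share of Tnni1 and Tnni2 in troponin I and of Tnnt1 in troponin T, in percent of counts per kilobase (y axes start at 0 and differ in range); bars are group means and points single libraries. Tnni1 has 0.00829% and 0.0148% in AAV-GFP, 0.921% and 0.924% in AAV-XBP1S, then 2.57% and 2.70% in AAV-ATF6N.

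Tnnt2, the cardiac troponin T, was the most abundant of its family. It had 24242 and 14669 CPM in AAV-GFP, 15060 and 10832 in AAV-XBP1S, then 12046 and 13148 in AAV-ATF6N. The log2 fold change was -0.59 (SE 0.29, adjusted p = 0.496 by edgeR) in AAV-XBP1S and was -0.63 (SE 0.29, adjusted p = 0.382 by edgeR) in AAV-ATF6N. Without the first AAV-GFP library these were -0.18 and -0.22, and without the second -0.87 and -0.93. As for Tnni3, the first AAV-GFP library was the highest, and the AAV-XBP1S and AAV-GFP ranges overlapped.

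Tnnt1, the slow skeletal troponin T, had 33.7 and 16.6 CPM in AAV-GFP, 21.8 and 15.6 in AAV-XBP1S, then 20.4 and 22.0 in AAV-ATF6N. The groups overlapped in both comparisons with AAV-GFP. Its log2 fold change was -0.43 (SE 0.36, 95% interval -1.29 to 0.43, adjusted p = 0.675 by edgeR) in AAV-XBP1S and was -0.25 (SE 0.36, 95% interval -1.11 to 0.61, adjusted p = 0.719 by edgeR) in AAV-ATF6N. Without the first AAV-GFP library the sign turned, to 0.17 and 0.35. Its share of troponin T per kilobase was 0.177% and 0.144% in AAV-GFP, 0.185% and 0.183% in AAV-XBP1S, then 0.216% and 0.213% in AAV-ATF6N. Both Tnni1 and Tnnt1 are slow skeletal genes, and their ratio per kilobase was 0.0481 and 0.0908 in AAV-GFP, 4.46 and 4.22 in AAV-XBP1S, then 10.2 and 10.2 in AAV-ATF6N.

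Tnnt3, the fast skeletal troponin T, was close to the limit of detection, with 0 and 5 counts in AAV-GFP, 24 and 13 in AAV-XBP1S, then 8 and 21 in AAV-ATF6N. A floor of 3 counts came to between 0.0305 and 0.0459 CPM. The fitted log2 fold change was 2.62 in both comparisons (SE 1.5 in AAV-XBP1S and 1.51 in AAV-ATF6N, adjusted p = 0.555 and 0.422 by edgeR), and leaving out 1 library moved it between 1.55 and 7.15 in AAV-XBP1S, without the first and without the second AAV-GFP library. In AAV-ATF6N it ran from 1.52, without the second AAV-ATF6N library, to 7.13, without the second AAV-GFP library, which leaves a control with no count.

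Tnnc1, the troponin C shared by heart and slow fibres, had 5581 and 2971 CPM in AAV-GFP, 3913 and 2594 in AAV-XBP1S, then 2845 and 2948 in AAV-ATF6N. Its log2 fold change was -0.39 (SE 0.34, adjusted p = 0.677 by edgeR) in AAV-XBP1S and was -0.56 (SE 0.34, adjusted p = 0.433 by edgeR) in AAV-ATF6N. Without the first AAV-GFP library these were 0.13 and -0.037. The fast troponin C gene Tnnc2 had 18 and 8, 4 and 10, and 1 and 4 counts, and it made up at most 0.00479% of troponin C per kilobase in any library. Its log2 fold changes were -0.84 (SE 1.18, adjusted p = 0.798 by edgeR) and -2.01 (SE 1.29, adjusted p = 0.448 by edgeR). Leaving out 1 library moved the latter between -1.25 and -3.44, without the first and without the second AAV-ATF6N library, and the former between -0.23 and -1.74, without the first and without the second AAV-XBP1S library.

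The ratios between families varied less than those within troponin I. The ratio of troponin I to troponin T per kilobase was 1.03 and 0.884 in AAV-GFP, 0.893 and 0.837 in AAV-XBP1S, then 0.855 and 0.801 in AAV-ATF6N. The ratio of troponin C to troponin T was 0.390 and 0.343, 0.440 and 0.406, and 0.400 and 0.380. The 8 genes together took 4.14% and 2.61% of all counts in AAV-GFP, 3.09% and 2.26% in AAV-XBP1S, then 2.14% and 2.26% in AAV-ATF6N. In a bulk sample, fewer cells of a type and less RNA of a gene per cell cannot be told apart.

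On the scale of CPM per kilobase, the order of mean levels in AAV-GFP was Tnnt2 (16308 ± 5674), Tnni3 (15893 ± 7081), Tnnc1 (6082 ± 2625), Tnnt1 (26.9 ± 12.9), Tnni2 (6.12 ± 3.13), Tnni1 (1.67 ± 0.0856), Tnnc2 (0.213 ± 0.0722) and Tnnt3 (0.0313 ± 0.0442), with SD and n = 2. The ranges of Tnnt2 and Tnni3 overlapped, and those of the other neighbours in this order did not. In AAV-XBP1S and AAV-ATF6N, Tnni1 stood above Tnnt1 and below Tnnc1, at 87.2 ± 23.8 and 231 ± 11.4, beside 20.0 ± 4.71 and 22.7 ± 1.19 for Tnnt1. Tnnt3 and Tnnc2 overlapped in both treated groups, at levels of at most 0.287.

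Other genes listed for slow fibres did not pass the test where Tnni1 did. Of 12 slow skeletal fibre genes tested, 0 passed in either comparison with AAV-GFP. Their median log2 fold change was -0.29 in AAV-XBP1S and -0.42 in AAV-ATF6N, beside -0.01 and -0.02 for all genes. The list includes genes that the ventricle also expresses, such as Myl2 and Myl3, so it does not measure slow fibre genes alone. Myh7, the slow and fetal myosin heavy chain, had 1.03 in AAV-ATF6N (SE 0.27, adjusted p = 0.228 by edgeR) and -0.02 in AAV-XBP1S. Myh7b had -1.34 in AAV-XBP1S (SE 0.26, adjusted p = 0.132 by edgeR), and Myl3, the slow and ventricular essential light chain, had -0.75 and -0.71. Of 17 fast fibre genes, 11 were tested, and 1 passed: Casq1 was higher in AAV-ATF6N, as were 0.35% of all genes tested. Casq1, the calcium store protein of fast fibres, was at 20.8 and 23.4 CPM in AAV-GFP, 20.5 and 17.9 in AAV-XBP1S, then 137 and 141 in AAV-ATF6N (log2 fold change 2.66, SE 0.21, adjusted p = 0.00713 by edgeR). Markers of skeletal muscle other than Ckm, which the heart also expresses, summed to 1.11 to 2.81 CPM in every library, and Myh1, Myod1 and Myog had 0 counts in all 6. Actn3 was at 0 in AAV-GFP, 0 and 0.171 in AAV-XBP1S, then 1.08 and 1.19 CPM in AAV-ATF6N (adjusted p = 0.465 and 0.230 by edgeR against AAV-GFP).

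Among 18 genes of fetal cardiac isoforms and stress, 0 passed in AAV-XBP1S, and in AAV-ATF6N 2 were higher and 1 lower. Of all genes tested, 0.35% were higher and 0.165% lower in AAV-ATF6N. Acta1, the skeletal actin of the fetal and stressed heart, was at 127 and 113 CPM in AAV-GFP, 202 and 169.5 in AAV-XBP1S, then 622 and 637 in AAV-ATF6N. Its log2 fold change was 2.39 in AAV-ATF6N (SE 0.20, adjusted p = 0.00988 by edgeR) and 0.62 in AAV-XBP1S (SE 0.19, adjusted p = 0.307 by edgeR). Nppa, the atrial natriuretic peptide, rose by 3.78 on the log2 scale in AAV-ATF6N (SE 0.45, adjusted p = 0.0298 by edgeR), from 165 ± 90.6 to 2262 ± 110 CPM. Myl7, the atrial regulatory light chain, fell by 5.72 (SE 0.72, adjusted p = 0.0357 by edgeR), from 19.2 ± 14.7 to 0.363 ± 0.0797 CPM. Nppa and Myl7 are both atrial markers, and in AAV-ATF6N these 2 were the ones called of the 7 listed, against 0 in AAV-XBP1S. Of all genes tested, 0.514% were called in AAV-ATF6N and 0.315% in AAV-XBP1S. The 7 atrial markers, mostly Nppa, summed to 310 and 132 CPM in AAV-GFP, 563 and 359 in AAV-XBP1S, then 2207 and 2364 in AAV-ATF6N. The single markers went both ways. In AAV-ATF6N 2 of the 7 had a log2 fold change above 0 and 5 below, with a median of -1.68. In AAV-XBP1S 6 were above 0 and 1 below, with a median of 0.84. The median of the 18 genes was 0.31 in AAV-XBP1S and 0.34 in AAV-ATF6N.

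Of 18 partners of troponin on the thin filament, 0 passed in AAV-XBP1S and 1 in AAV-ATF6N. This was Acta1, higher in AAV-ATF6N, as were 0.35% of all genes tested. Xirp1, an actin-binding repeat protein of the intercalated disc, had 1.57 in AAV-ATF6N (SE 0.46, adjusted p = 0.268 by edgeR), and Tpm4, a tropomyosin, had 0.61 in AAV-XBP1S (SE 0.19, adjusted p = 0.302 by edgeR). Of 26 regulators of troponin genes, which include Srf, the Mef2 and Gata factors and the thyroid hormone receptors, 0 passed in either comparison. Their median was -0.31 in AAV-XBP1S and 0.12 in AAV-ATF6N. The smallest p-values belonged to Ppara, a fatty acid receptor (-1.03, SE 0.22, adjusted p = 0.169 by edgeR), Srf (-0.67, SE 0.19, adjusted p = 0.268 by edgeR) and Gata6 (-0.68, SE 0.19, adjusted p = 0.268 by edgeR), all in AAV-XBP1S. Thra, a thyroid hormone receptor, had -0.69 and -0.89, with adjusted p = 0.470 and 0.332 by edgeR.

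The kinases and phosphatases that act on troponin I and T did not pass either: 0 of 19 in both comparisons, with medians of 0.03 in AAV-XBP1S and 0.46 in AAV-ATF6N. Prkar1a and Prkaca, subunits of protein kinase A, had 0.57 and 0.43 in AAV-ATF6N (adjusted p = 0.306 and 0.376 by edgeR), and Prkcd, a protein kinase C, had 0.72 (adjusted p = 0.347 by edgeR). Of 13 splicing factors known for Tnnt2, 0 passed in either comparison. Celf2 had 0.72 (SE 0.19, adjusted p = 0.233 by edgeR) and Mbnl2 0.66 (SE 0.21, adjusted p = 0.309 by edgeR) in AAV-ATF6N, and Ptbp1 had 0.60 (SE 0.20, adjusted p = 0.335 by edgeR) in AAV-XBP1S. Counts per gene do not show splice forms of Tnnt2. Of 10 skeletal myogenic and satellite cell genes, 1 was tested, Chrng, an embryonic acetylcholine receptor subunit, and it did not pass (4.79 and 4.34, adjusted p = 0.291 and 0.312 by edgeR).

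Markers of other cell types moved in part with the groups. The 5 markers of proliferating cells summed to 1.43 and 2.29 CPM in AAV-GFP, 19.6 and 21.6 in AAV-XBP1S, then 16.3 and 18.0 in AAV-ATF6N. In each comparison 3 of 5 were higher, beside 0.178% of all genes tested in AAV-XBP1S and 0.35% in AAV-ATF6N. Like Tnni1 the proliferation markers were low in AAV-GFP, but AAV-XBP1S was not below AAV-ATF6N. Endothelial markers summed to 1073 and 899 CPM in AAV-GFP, 1243 and 1430 in AAV-XBP1S, then 643 and 594 in AAV-ATF6N, with 0 of 8 called in either comparison. The fibroblast markers summed to 468 and 605 CPM in AAV-GFP, 813 and 967 in AAV-XBP1S, then 830 and 795 in AAV-ATF6N, so that both AAV-GFP libraries were below the other 4, again with 0 of 8 called. Macrophage and leukocyte markers summed to 20.2 and 24.1 CPM in AAV-GFP and to between 34.97 and 36.1 in the other 4 libraries, with 0 of 5 tested called. Epicardial markers summed to 5.51 and 6.26 CPM in AAV-GFP, 37.6 and 30.5 in AAV-XBP1S, then 12.9 and 14.2 in AAV-ATF6N. Of these 6 markers 1 (Krt18) was higher in AAV-XBP1S, as were 0.178% of all genes tested. Of 3 erythroid markers tested, 1 (Alas2) was lower in AAV-ATF6N, as were 0.165% of all genes tested. The part of other cell types in the Tnni1 result was not tested.

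No tested neighbour of Tnni1 passed the test. Lad1, the gene of ladinin, which lies 7609 bases from Tnni1 between it and Tnnt2, had log2 fold changes of 0.77 (SE 0.34, adjusted p = 0.451 by edgeR) in AAV-XBP1S and was -0.25 (SE 0.34, adjusted p = 0.696 by edgeR) in AAV-ATF6N. On the other side Phlda3 had 0.38 and 0.27, Csrp1, a LIM protein, had 0.54 and 0.61, and Nav1 had 1.26 (adjusted p = 0.0943 by edgeR) and 0.18. Over all 8 troponin genes there were 33 distinct neighbours that are not troponin genes, 27 of them tested. Of all genes tested, 0.315% passed in AAV-XBP1S and 0.514% in AAV-ATF6N, and 1 neighbour was called in each comparison with AAV-GFP. This was Ube2c, a cell cycle ubiquitin-conjugating enzyme beside Tnnc2, with 2.46 in AAV-XBP1S (adjusted p = 0.0447 by edgeR) and 3.17 in AAV-ATF6N (adjusted p = 0.0223 by edgeR).

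**Figure D4:**
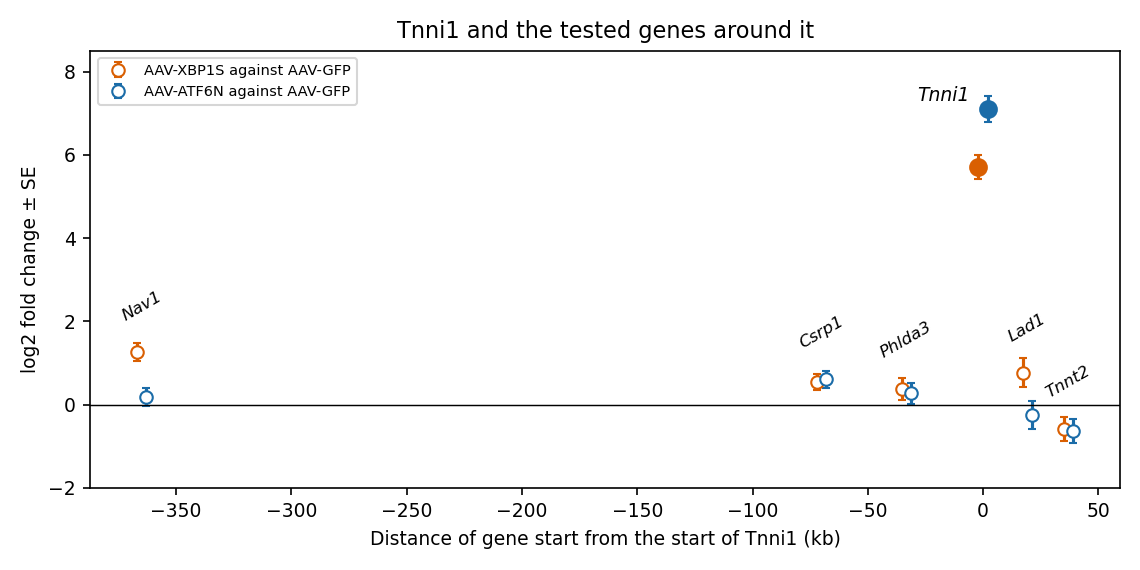
Log2 fold change with its SE (y axis) of Tnni1 (filled) and its tested neighbours (open) by distance of the gene start from that of Tnni1 in kilobases (x axis), orange for AAV-XBP1S and blue for AAV-ATF6N against AAV-GFP. Tnni1 lies at 5.70 and 7.11, and the neighbours, Tnnt2 among them, lie between -0.63 and 1.26.

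The genes most similar to Tnni1 were ranked by the root mean square difference of log2 CPM, each centred on the gene's mean, over the 6 libraries. Of 9980 candidates, the 5 nearest were Derl3 (0.915), Slc2a6 (0.940), Top2a (1.24), Pdia2 (1.38) and Pik3ap1 (1.44). Derl3 had 0.244 and 0.449 CPM in AAV-GFP, 14.7 and 10.2 in AAV-XBP1S, then 136 and 142 in AAV-ATF6N, and passed in both comparisons (5.19, adjusted p = 0.00551, and 8.67, adjusted p = 0.00130, by edgeR). Like Tnni1, it was near 0 in AAV-GFP, between in AAV-XBP1S and highest in AAV-ATF6N. Slc2a6, a sugar transporter, and Pdia2, a protein disulfide isomerase, had the same order, while Top2a, a topoisomerase of dividing cells, was level between the treated groups. Slc2a6 and Pdia2 passed in both comparisons and Top2a in AAV-ATF6N only. Pik3ap1 passed in neither (adjusted p = 0.409 in AAV-XBP1S and 0.140 in AAV-ATF6N by edgeR). These genes were chosen for their likeness over 6 libraries, which carries no test.

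Among the 5 genes nearest to Tnni2 were Mt2 (0.269), Gadd45g (0.349), Cebpb (0.398) and Ccl2 (0.412). Each of these was lower in both AAV-XBP1S libraries than in the other 4. None of these 4 passed in either comparison with AAV-GFP. For Tnnt3 the nearest were Tacc3, Racgap1, Mcm5, C3 and Arntl, and for Tnnc2 they were Gbp5, Slfn2, Rbks, Cryl1 and 2810422O20Rik, but with at most 24 counts in a library these profiles rest on few reads. Log2 CPM spanned 7.19 for Tnni1, 3.82 for Tnnt3, 3.03 for Tnni2 and 2.50 for Tnnc2, and 1.11 to 1.47 for the other 4.

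**Figure D5:**
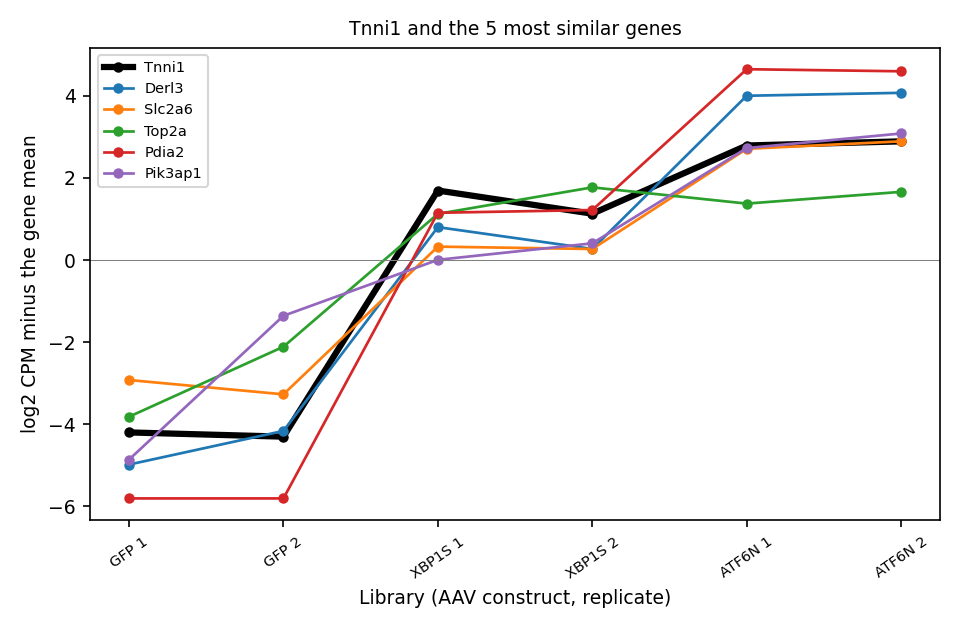
Log2 CPM minus the gene mean (y axis) over the 6 libraries (x axis) for Tnni1 (thick black line) and the 5 genes most similar to it. Tnni1 is low in both AAV-GFP libraries and high in the other 4.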

How the data were processed

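Polyadenylated RNA was amplified with SMART-Seq chemistry and made into libraries with Nextera XT, per the labels. Such kits do not mark strand. The deposited table holds whole-number read counts per gene. The submitters' processing notes name STAR, featureCounts and the build mm10. Tool versions, strand setting and annotation release: not given in the sources used here. For each comparison with AAV-GFP, the authors also deposited a log2 fold change per gene with raw and adjusted p-values, its error and a test statistic (both scores). The notes name DESeq2 and DESeq.

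Genes were kept by filterByExpr (count minimum 10). TMM normalization and edgeR's quasi-likelihood test (edgeR 4.0.16, R 4.3.3) were applied to all 6 libraries with group as the only term, two-sided, with Benjamini-Hochberg adjustment over 14587 genes and a threshold of 0.05. CPM used TMM library sizes. Levels and shares of different genes used counts per kilobase of the deposited exon length. Log2 CPM for likeness used a prior count of 2. The fit was also run on simulated counts. These had the same dispersion (spread beyond counting error) for every gene and no library that stood apart, so they do not cover those features of the data. Reads carried no molecular identifier named in the labels, so intervals and floors cover counting error only.

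The troponin genes and the gene lists were chosen with earlier results of these data known. Genes outside the troponins were named where they passed the test in a list, else for the smallest p (up to 3 in a list), for likeness to a troponin gene with a log2 range of at least 2, or for adjacency (3 genes on each side). 1 gene that this rule names is not reported here. Alternatives were DESeq2 1.42.0, no filter, RLE size factors in edgeR, a replicate block, the 4 libraries of a comparison alone, raw counts for shares, and leaving out each library.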

Additional observations from a re-analysis of the deposited data

How the results depend on the processing

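Tnni1 kept its direction and its call against AAV-GFP under every alternative run. Leaving out 1 library at a time gave 5.44 to 5.96 in AAV-XBP1S (adjusted p 0.00330 to 0.0302 by edgeR) and 7.06 to 7.16 in AAV-ATF6N (0.00277 to 0.00876). In the direct comparison it was past the threshold with DESeq2 (1.40) and with only 4 libraries (1.40). It also passed without a filter (1.40, adjusted p = 0.00723 by edgeR) and with a replicate block (1.42, adjusted p = 0.0237 by edgeR). With RLE size factors, another scaling of library size, it did not pass (1.40, adjusted p = 0.0711 by edgeR). Without the first or the second AAV-GFP library it was 1.40 and 1.38. Without the first or the second AAV-XBP1S library it was 1.67 and 1.15, and without those of AAV-ATF6N 1.45 and 1.35. Each of these fits leaves 1 library in a group. Direct Tnni2 passed with DESeq2 (2.12), without a filter (2.11) and with the block (2.30), and ran from 1.57 to 2.98 on leaving out 1 library.

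The genes called in AAV-XBP1S, AAV-ATF6N and the direct comparison were 46, 75 and 33. DESeq2 gave 481, 564 and 807, no filter 233, 348 and 458, a replicate block 165, 237 and 356, and only 4 libraries 13, 8 and 663. Leaving out 1 library gave 2 to 322, 6 to 3055 and 1 to 717. The cause was not tested. The labels do not say what a replicate number shares. Over the genes tested, the difference between replicates 1 and 2 correlated at 0.379 between AAV-GFP and AAV-XBP1S. The correlation was -0.0402 between AAV-GFP and AAV-ATF6N and -0.0480 between AAV-XBP1S and AAV-ATF6N. These values do not settle whether replicate numbers pair the libraries.

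Values of the other troponin genes that turned were not past the threshold. On leaving out 1 library, the ranges in AAV-XBP1S were -0.82 to 0.17 for Tnnt1 and -0.75 to 0.13 for Tnnc1. In AAV-ATF6N they were -0.66 to 0.35 for Tnnt1, -0.040 to 1.04 for Tnni2, -1.28 to -0.36 for Tnni3, -0.93 to -0.22 for Tnnt2 and -0.93 to -0.037 for Tnnc1, and without the second AAV-GFP library those of Tnni3, Tnnt2 and Tnnc1 passed. In the direct comparison they were -0.40 to 0.13 for Tnni3, -0.26 to 0.17 for Tnnt2 (0.02 without the first AAV-ATF6N library), -0.44 to 0.12 for Tnnc1, -0.044 to 0.40 for Tnnt1 and -1.07 to 0.62 for Tnnt3 (0.35 without the first AAV-XBP1S library). Direct Tnnt3 was 0.0040 with DESeq2 and 0.0025 without a filter. With raw counts, the Tnni1 share was 1.24% and 3.53% in AAV-XBP1S and AAV-ATF6N. In AAV-GFP, AAV-XBP1S and AAV-ATF6N the raw Tnnt1 share was 0.126%, 0.144% and 0.168%, the ratio of troponin I to T 0.660, 0.600 and 0.577, and that of C to T 0.216, 0.249 and 0.230, since the raw counts leave out gene length.

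Depth limits Tnnt3 and Tnnc2, with at most 24 counts in a library. Sex-linked genes differed between the groups, and the labels give neither sex nor animals per library.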
